A study of Mus musculus with 16 samples.

Results

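The genes described here are 9 members of the pathway that carries cytokine signals from receptor to nucleus and then shuts them off. They are the transcription factor genes Stat2, Stat3, Stat4, Stat5a, Stat5b and Stat6 and the feedback inhibitor genes Socs1, Socs3 and Cish. They were chosen by symbol for their place in the pathway, with earlier results of these data known. All 9 are among the 13085 genes of the deposited table, and all 9 passed the filter on low values that left 12782 genes to test.

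RNA was sequenced from mouse monocytes of NFAM1+/+ and NFAM1-/- mice after 6 or 24 h in culture. NFAM1 is a receptor of immune cells that carries an ITAM signaling motif, and the knockout removes exons 2 and 3 of its gene in C57BL/6 mice. Cells were left unstimulated or were given IFN-γ together with CD40L, which engages the activating receptor CD40. IFN-γ was started before CD40L, and CD40L was used at 1 ug/mL. The 16 libraries form 8 groups of 2, and each combination of stimulus and time has 4 libraries over both genotypes. Unstimulated NFAM1+/+ cells are libraries 1 and 2 at 6 h and 44 and 45 at 24 h, and unstimulated NFAM1-/- cells are 3 and 4 at 6 h and 43 and 46 at 24 h. Stimulated NFAM1+/+ cells are libraries 10 and 26 at 6 h and 56 and 57 at 24 h, and stimulated NFAM1-/- cells are 11 and 12 at 6 h and 55 and 58 at 24 h. At 24 h the genotype of the title, used in this list, disagrees with the genotype tag for 4 libraries, which are 44, 46, 56 and 58. Genotype differences printed for 24 h are therefore given by title and by tag, and counts at 24 h by title alone. Comparisons of stimulus and time average over both genotypes and use that label only for the spread. All stimulated cells received both agents, so the parts of IFN-γ and CD40L cannot be told apart. The mice behind each library are not named, and by the study's description there were fewer mice of each genotype than libraries, so some libraries share a mouse. The model treats the 16 libraries as independent, and its p-values measure the spread between these libraries.

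STAT proteins wait in the cytoplasm until a Janus kinase, bound to a cytokine receptor, phosphorylates them. They then pair, enter the nucleus and bind DNA, where STAT2 acts with the partner IRF9 on interferon response elements and most other STAT dimers bind gamma-activated sites. The genes Socs1, Socs3 and Cish are themselves known STAT targets, and their proteins block the kinases or occupy the receptors, which closes a negative feedback loop. In monocytes and macrophages this loop is known for limiting the response to interferons and to cytokines of the IL-6 family.

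The start regions of the genes were searched for the 2 kinds of binding letters that the loop is known for, and every match is printed. RefSeq gave 12 windows of 300 bases (GRCm38.p6, 250 bases before to 50 after each start) for the 9 genes. Both strands were searched for TTCNNNGAA, the core of a gamma-activated site, and GAAANNGAAA, the core of an interferon response element. These motifs can overlap, since the first ends and the second begins with GAA. TTCNNNGAA stood in 8.33% and GAAANNGAAA in 3.45% of the 32544 windows of all genes. In the sequences below the capitals mark the matches, and each runs 5′ to 3′ on the strand of its gene. Socs1 (chr16:10785584-10785639, minus strand) held 2 overlapping GAAANNGAAA matches, which begin 83 and 77 bases before the start. Stat2 (chr10:128270256-128270305, plus strand) held 1 on its other strand. Stat4 (chr1:52008123-52008172, plus strand) held 1 in the second of its 2 windows. Socs3 (chr11:117969492-117969540, minus strand) held 1 TTCNNNGAA, which begins 154 bases before the start. Cish (chr9:107296649-107296678, plus strand) held 2, which begin at bases 1 and 12 of the transcribed part.
Socs1: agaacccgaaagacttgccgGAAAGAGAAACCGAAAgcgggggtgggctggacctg
Stat2: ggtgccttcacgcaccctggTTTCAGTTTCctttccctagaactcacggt
Stat4: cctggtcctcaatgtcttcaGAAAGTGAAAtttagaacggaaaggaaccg
Socs3: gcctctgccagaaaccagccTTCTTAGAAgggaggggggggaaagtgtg
Cish: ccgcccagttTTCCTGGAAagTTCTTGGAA
The windows of Stat3, Stat5a, Stat5b and Stat6 held neither string of letters. A match describes the letters and not a bound site, and its absence says only that these letters are not in the window. Whether the matches bear on the responses below was not tested.

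Levels are given as CPM, in which the authors divided a gene's reads by a scaled library size, and differences as log2 fold changes with their standard error (SE). A gene was called changed when it differed by 2-fold or more with an adjusted p under 0.05 (limma with Benjamini-Hochberg adjustment over all 12782 genes). Own-total scaling divides by the reads of a library alone. Compared with it, the authors' scaling raised stimulated against unstimulated libraries at both times, which moved every stimulus response upward. Values are therefore also given with own-total scaling, wherever it changed a direction or a call. In these bulk samples, fewer cells of a type and less RNA per cell cannot be told apart. Reads over all listed genes summed to between 48295939 and 88514341 in a library. The 10 monocyte and macrophage markers summed to 22600 to 30900 CPM in unstimulated and 8310 to 11600 CPM in stimulated libraries. Most of the sum without the stimulus was Lyz2, with at least 15690 CPM. With the stimulus Lyz2 was at 2667 to 4159 CPM at 6 h, beside a sum of 8310 to 10200 CPM. At 24 h with the stimulus it was at 4827 to 7390 CPM. Of the others 7, among them Csf1r and Cd14, were lower with the stimulus at both times, while Ly6c2 and Fcgr1 were higher. Markers of other cells were far lower. Unstimulated libraries held 72.3 to 149 CPM of 6 neutrophil markers at 6 h and 391 to 701 CPM at 24 h, against 41.6 to 168 and 73.9 to 126 CPM with the stimulus. The 4 dendritic cell markers summed to 19.3 to 38.7 CPM except in unstimulated libraries at 24 h, with 85.1 to 176 CPM, and 2 of 5 B cell markers to 1.02 to 17.4 CPM. Their part in the results was not tested. The knockout's own gene was a weak check. Nfam1 was at 408 and 432 CPM in NFAM1+/+ and 299 and 321 CPM in NFAM1-/- unstimulated libraries at 6 h (log2 fold change -0.44, adjusted p = 0.0514). At 6 h with the stimulus its log2 difference was -0.01. At 24 h without stimulus it was -0.20 by title and 0.04 by tag, and with stimulus -0.30 and -0.02. The reads cover the whole gene, of which only exons 2 and 3 are removed.

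The stimulus moved the members apart. At 6 h Socs1, Cish, Stat2, Socs3 and Stat3 were called higher, 5 of 9 members against 19.1% of all genes tested. At 24 h the same 5 and Stat4 were called higher, 6 of 9 against 14.6%. Cish, counted at both times, was under 1 CPM in every unstimulated library. It passed the filter through stimulated libraries alone, so its call as higher was largely fixed in advance. No member was called lower at either time, against 20.6% of genes at 6 h and 18.7% at 24 h, although 7 of 9 at 6 h and 8 of 9 at 24 h had an unadjusted p under 0.05 in limma, beside 79.4% and 76.5% of all genes. The median log2 fold change of the 9 was 2.02 at 6 h and 1.88 at 24 h, beside -0.13 and 0.01 over all genes. Stat5a, Stat5b and Stat6 stayed under a 2-fold change at both times on the deposited scale. With own-total scaling the responses at 6 h were smaller but the same 5 were called, Socs1 at 8.70, Cish at 5.09, Stat2 at 4.02, Socs3 at 3.55 and Stat3 at 1.29 on the log2 scale.

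**Figure D1:**
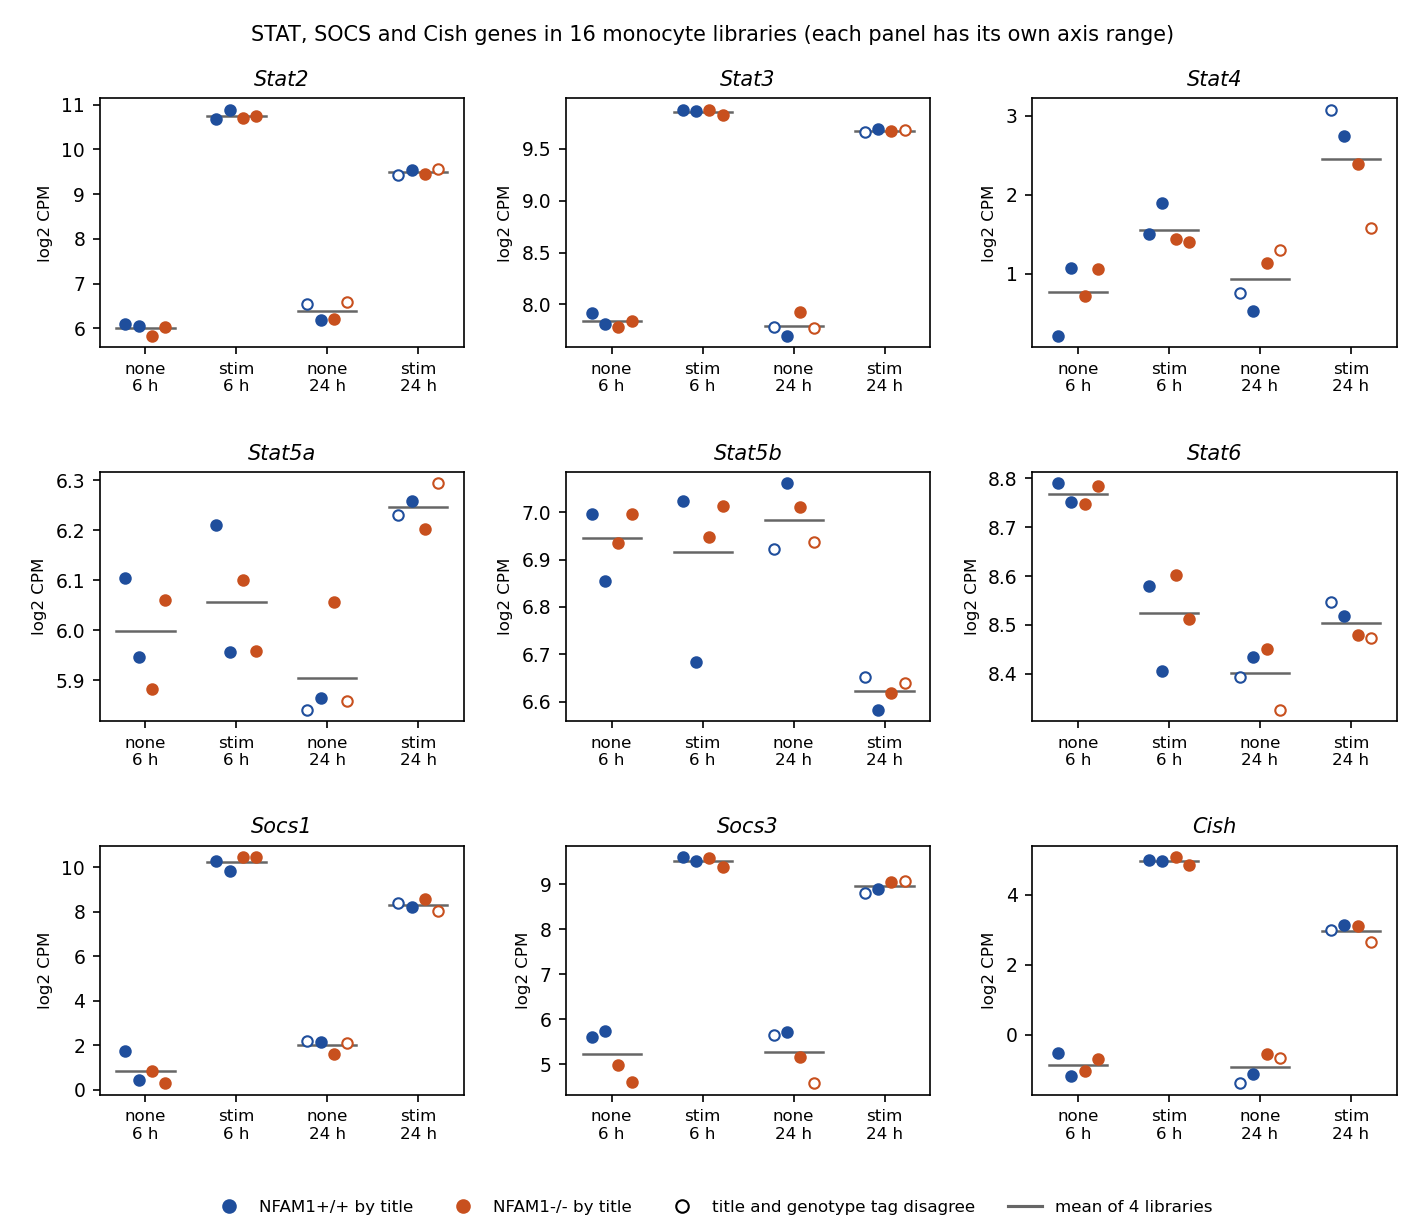
Level of each of the 9 genes (log2 CPM, each panel with its own range) in the 16 libraries, by stimulus and time; colour is the genotype of the title, open circles are the 4 libraries whose title and tag disagree, and lines are means of 4. The 4 stimulated libraries lie above the 4 unstimulated ones at both times for Stat2, Stat3, Stat4, Socs1, Socs3 and Cish, and the other panels span less than 1 log2 unit.

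Stat2 encodes the STAT that serves type I and type III interferon receptors. At 6 h it measured 68.1, 66.6, 56.8 and 65.8 CPM in unstimulated and 1897, 1653, 1670 and 1713 CPM in stimulated libraries. The values at 24 h were 74.5, 93.5, 73.5 and 96.9 CPM without and 698, 688, 741 and 751 CPM with the stimulus. The lowest stimulated library was thus several-fold above the highest unstimulated one at both times. The response was 27.0-fold at 6 h (log2 4.75, SE 0.09, adjusted p = 8.23e-15) and 8.57-fold at 24 h (log2 3.10, SE 0.09, adjusted p = 9.76e-13). Part of the gene overlaps Apof in RefSeq, and the kit does not mark strand, so reads of the shared stretch cannot be assigned to one of them, although Apof itself had at most 178 reads in a library.

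Stat3 encodes the STAT of the IL-6 and IL-10 receptors. It held 221 to 242 CPM in unstimulated and 905 to 940 CPM in stimulated libraries at 6 h. After 24 h the ranges were 207 to 243 CPM and 807 to 826 CPM. The spread was small beside the response, which was 4.05-fold at 6 h (log2 2.02, SE 0.05, adjusted p = 6.91e-14) and 3.68-fold at 24 h (log2 1.88, SE 0.05, adjusted p = 2.53e-13). With quantile normalization it was 1.08 at 6 h and 1.39 at 24 h on the log2 scale. The tested genes whose pattern over the 16 libraries was nearest to that of Stat3 were Gbp5, Inpp5b and Clic5, with Pearson r of 0.998, 0.997 and 0.997. This measure of likeness is dominated by the contrast between stimulated and unstimulated libraries, which all of these genes share.

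Stat4 encodes the STAT of the IL-12 receptor, best known in T cells and NK cells, and it had few reads here, 104 to 605 in a library. At 6 h its level was 1.16, 2.11, 1.65 and 2.08 CPM in unstimulated and 3.71, 2.84, 2.71 and 2.64 CPM in stimulated libraries. The levels at 24 h were 2.19, 1.69, 1.45 and 2.47 CPM without and 5.26, 8.44, 6.72 and 2.98 CPM with the stimulus. The groups did not overlap at either time, but the stimulated libraries at 24 h were spread more widely than in any other condition of this gene. The response was 1.73-fold at 6 h, under the 2-fold threshold (log2 0.79, SE 0.23, adjusted p = 0.00612). With own-total scaling it was 0.06 (adjusted p = 0.80). At 24 h it was 2.87-fold (log2 1.52, SE 0.23, adjusted p = 3.69e-05). Of 7 T cell markers 4 were analysed, and their summed level was 0.661 to 1.83 CPM in unstimulated and 7.22 to 11.7 CPM in stimulated libraries at 6 h. At 24 h it was 4.61 to 7.12 CPM without and 3.85 to 5.72 CPM with the stimulus. The markers did not move together. At 24 h Cd4 was at 2.88 to 3.14 CPM without and 0.217 to 0.787 CPM with the stimulus, while Lck was at 0.128 to 0.19 CPM without and 0.286 to 0.509 CPM with it. Cd247 was at 0.0753 to 0.432 CPM without and 0.425 to 1.21 CPM with it, and Cd8a overlapped. At 6 h Cd247 and Lck were higher and Cd4 lower with the stimulus. Their part in the Stat4 result was not tested.

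Stat5a and Stat5b are near-identical neighbours that serve the GM-CSF, IL-3 and IL-2 receptors, and lie beside Stat3 on chromosome 11. How the counting treated reads that match both genes is not given. At 6 h Stat5a ran from 59.0 to 68.9 CPM without and 62.1 to 74.1 CPM with the stimulus, and Stat5b from 116 to 128 CPM and 103 to 130 CPM. Both ranges overlapped. The log2 differences were 0.06 (95% interval -0.10 to 0.21, adjusted p = 0.466) for Stat5a and -0.03 (-0.17 to 0.12, adjusted p = 0.704) for Stat5b, but -0.67 and -0.76 with own-total scaling. At 24 h the pair parted. Stat5a ran from 57.3 to 66.6 CPM without and 73.6 to 78.5 CPM with the stimulus (log2 0.34, SE 0.07, adjusted p = 0.000625), a difference that was 0.01 with own-total scaling. Stat5b ran from 121 to 134 CPM without and 95.9 to 101 CPM with it (log2 -0.36, SE 0.07, adjusted p = 0.000255), and stayed lower at -0.69 with own-total scaling. Neither reached 2-fold at either time on the deposited scale.

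Stat6 encodes the STAT of the IL-4 and IL-13 receptors. At 6 h it ran from 430 to 443 CPM in unstimulated and from 339 to 389 CPM in stimulated libraries. It was lower with the stimulus (log2 -0.24, SE 0.05, adjusted p = 0.000444), beside a median of -0.13 over all genes. The difference was -0.97 with own-total scaling and -1.15 with quantile normalization, which puts it past 2-fold and calls it lower. At 24 h its ranges were 321 to 350 CPM and 355 to 374 CPM (log2 0.10, SE 0.05, adjusted p = 0.0738), a difference that turned to -0.23 with own-total scaling and -0.32 with quantile normalization. The gene overlaps Nab2 in RefSeq, and without strand the reads of the overlap cannot be assigned. Nab2 ran from 31.8 to 49.5 CPM without and 59.6 to 66.6 CPM with the stimulus at 6 h, and from 27.95 to 39.0 and 11.2 to 14.02 CPM at 24 h, and its part in the Stat6 values was not tested.

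Among the feedback inhibitors Socs1, whose protein binds and blocks Janus kinases at the IFN-γ receptor, had the largest log2 response of the 9 at both times. At 6 h it measured 3.31, 1.34, 1.78 and 1.21 CPM in unstimulated libraries, from 83 to 373 reads, and 909, 1226, 1406 and 1388 CPM in stimulated ones. Values at 24 h were 3.06, 4.55, 4.36 and 4.31 CPM without and 374, 336, 295 and 258 CPM with the stimulus. From a low start the gene rose 691-fold at 6 h (log2 9.43, SE 0.23, adjusted p = 9e-14) and 77.7-fold at 24 h (log2 6.28, SE 0.23, adjusted p = 1.02e-11). The genes nearest to it in pattern were Gm12185, Ifi47 and Ifit1, with r of 0.997, 0.997 and 0.996 over the 16 libraries.

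Socs3, whose protein limits signaling through gp130, the shared IL-6 receptor chain, started higher. At 6 h it measured 48.7, 53.8, 31.9 and 24.4 CPM in unstimulated and 728, 779, 766 and 672 CPM in stimulated libraries. At 24 h the values were 35.7, 49.9, 52.3 and 23.9 CPM without and 529, 447, 477 and 540 CPM with the stimulus. The unstimulated libraries varied more than 2-fold among themselves at each time and the stimulated ones far less. The response was 19.5-fold at 6 h (log2 4.28, SE 0.11, adjusted p = 1.29e-13) and 12.9-fold at 24 h (log2 3.68, SE 0.11, adjusted p = 1.01e-12). The nearest patterns were those of Csrnp1, Serpina3f and C1s1, with r of 0.993, 0.992 and 0.992.

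Cish encodes a member of the same family that docks on receptors using STAT5, and it was the least read of the 9 without the stimulus, with 27 to 79 reads in a library. Its level at 6 h was 0.704, 0.441, 0.492 and 0.616 CPM in unstimulated and 31.5, 31.8, 33.9 and 28.7 CPM in stimulated libraries. The level at 24 h was 0.689, 0.384, 0.463 and 0.628 CPM without and 8.66, 8.01, 8.73 and 6.32 CPM with the stimulus. The gene rose 56.7-fold at 6 h (log2 5.83, SE 0.19, adjusted p = 1.46e-12) and 14.9-fold at 24 h (log2 3.90, SE 0.19, adjusted p = 1.57e-10).

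**Figure D2:**
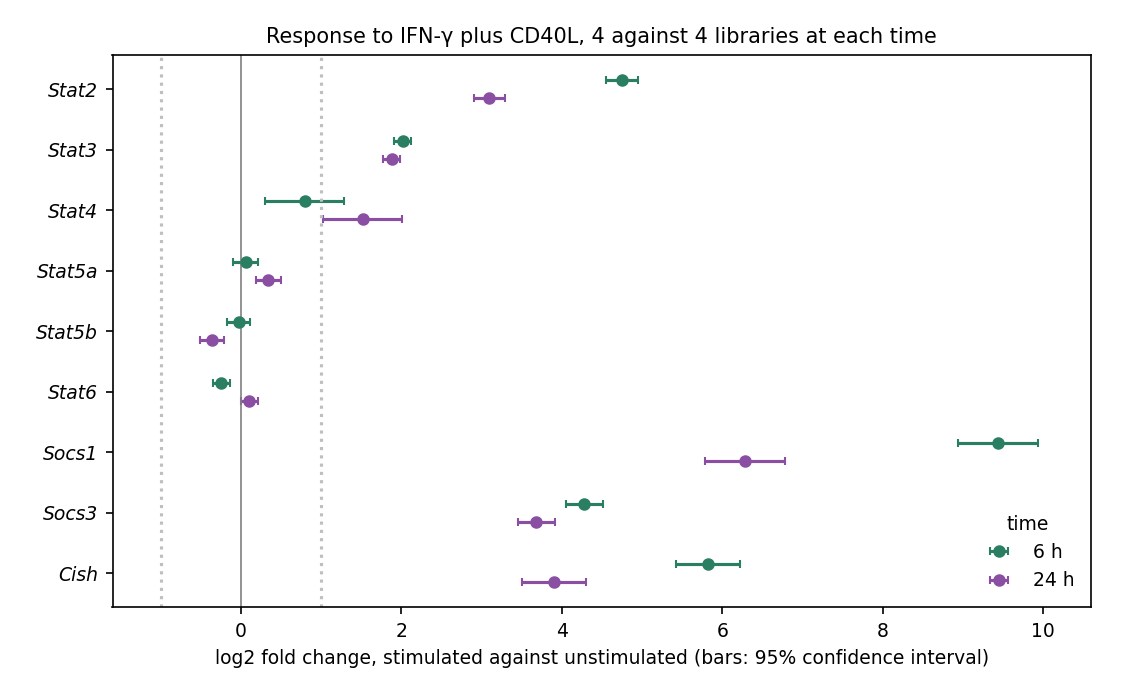
Log2 fold change of the 9 genes with IFN-γ plus CD40L at 6 h and 24 h (4 against 4 libraries, bars are 95% confidence intervals, dotted lines mark 2-fold). Socs1 stands at 9.43 and 6.28, and the intervals of Stat2, Socs1, Socs3, Cish and Stat5b at 6 h lie above those at 24 h.

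The response was smaller at 24 h than at 6 h for part of the set. The test of the difference between both responses called Stat2, Socs1 and Cish lower, 3 of 9 members against 18.2% of all genes, and none higher, against 13.3%. The log2 response was lower by 3.15 for Socs1 (8.90-fold, SE 0.33, adjusted p = 1.4e-06). For Cish it dropped by 1.92 (3.79-fold, SE 0.26, adjusted p = 1.86e-05), and for Stat2 it dropped by 1.65 (3.15-fold, SE 0.13, adjusted p = 9.08e-08). For Socs3 the difference was -0.60 (SE 0.15, adjusted p = 0.00354), under 2-fold, and -0.20 (adjusted p = 0.259) with own-total scaling. No test set one member against another. For Stat3 the difference was -0.14 (95% interval -0.28 to 0.01, adjusted p = 0.09), and it turned to 0.26 with own-total scaling and 0.31 with quantile normalization. For Stat4 the difference was 0.73 (SE 0.33, adjusted p = 0.0635), and 1.12 (adjusted p = 0.00633) with own-total scaling. The 3 remaining genes differed by less than 2-fold, Stat5a by 0.28 (adjusted p = 0.0236), Stat6 by 0.35 (adjusted p = 0.000585) and Stat5b by -0.33 (adjusted p = 0.00737), the last turning to 0.07 with own-total scaling.

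The levels of stimulated cells were also set against each other directly. From 6 to 24 h Stat2, Socs1 and Cish were called lower, 3 of 9 against 17.2% of all genes, and none higher, against 16.5%. On the log2 scale Cish fell by 2.00 (SE 0.19), Socs1 fell by 1.96 (SE 0.23) and Stat2 fell by 1.27 (SE 0.09), with adjusted p of 2.34e-07, 2.93e-06 and 1.59e-08. With own-total scaling and quantile normalization the fall of Stat2 was under 2-fold, at -0.89 and -0.73. Stat4 moved the other way, by 0.89 (SE 0.23, adjusted p = 0.00298), although its lowest stimulated library at 24 h, 2.98 CPM, lay within the range at 6 h. Its difference was 1.26 with own-total scaling and then past 2-fold. Socs3 differed by -0.57 (adjusted p = 0.000297), and by -0.19 (adjusted p = 0.12) with own-total scaling. Stat3 differed by -0.18 (adjusted p = 0.0033), Stat5b by -0.29 (adjusted p = 0.00128) and Stat6 by -0.02 (adjusted p = 0.72), and with own-total scaling these were 0.19, 0.08 and 0.35, so no direction is given for them. Stat5a differed by 0.19 (adjusted p = 0.0267) and by 0.56 with own-total scaling.

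**Figure D3:**
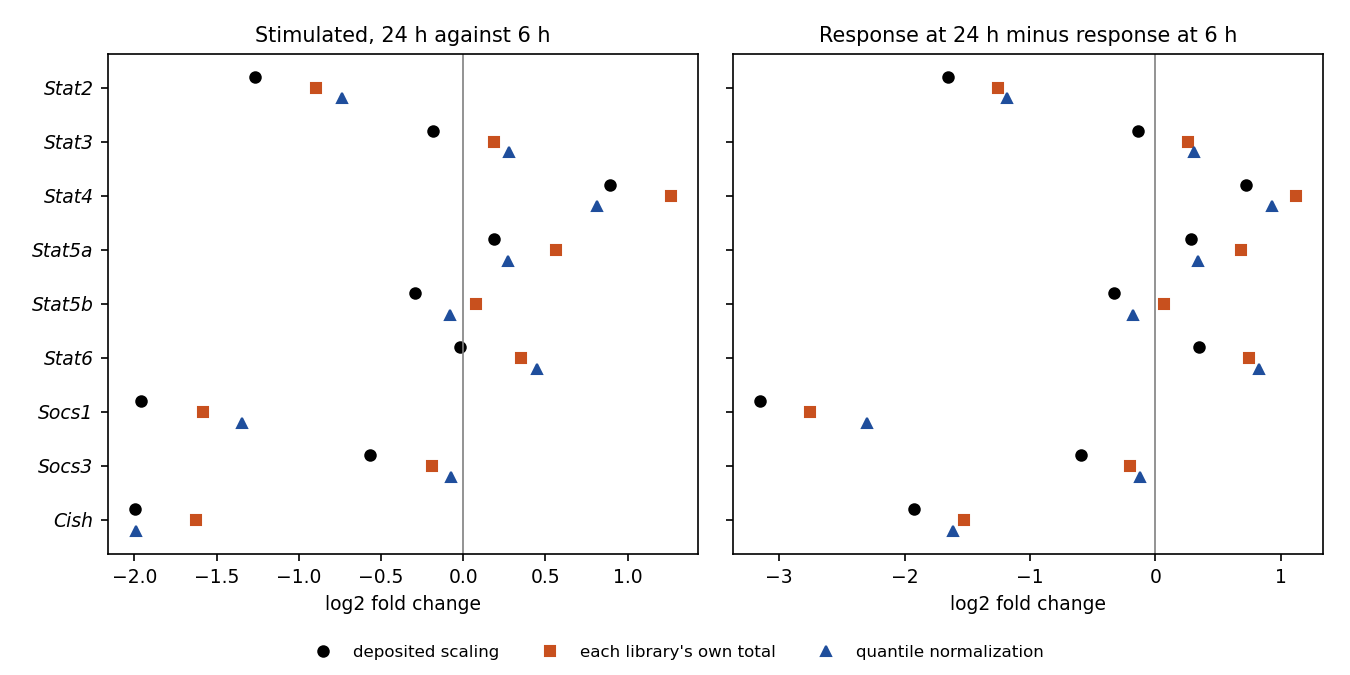
Log2 difference between 24 h and 6 h in stimulated cells (left) and difference between the responses at both times (right) for the 9 genes under 3 scalings of the libraries. Socs1, Cish and Stat2 are below 0 under all 3, Stat4 and Stat5a above, and Stat3 crosses 0 in both panels.

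Without the stimulus the times differed less. Socs1 was called higher at 24 h, 1 of 9 members against 13.2% of all genes, and none lower, against 7.76%. It rose 2.29-fold (log2 1.19, SE 0.23, adjusted p = 0.000468), but library 1 at 6 h, with 3.31 CPM, lay within the range at 24 h, and without library 2 the difference was 0.87 and under 2-fold. Stat2 rose by 0.39 (SE 0.09, adjusted p = 0.00204) with no overlap of libraries, and Stat6 fell by 0.37 (SE 0.05, adjusted p = 1.93e-05), also with none. The other 6 differed by -0.09 to 0.17, with adjusted p of 0.269 or more.

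The 4 conditions could then be put in order for each gene. Stat2 was highest with the stimulus at 6 h, then with it at 24 h, then without it at 24 h and lowest without it at 6 h, with no overlap between neighbours. Socs1 had the same order, with overlap between the unstimulated times. Stat3, Socs3 and Cish shared the first 2 places of that order, and their unstimulated times overlapped. Stat4 was highest with the stimulus at 24 h, then with it at 6 h, which overlapped, and then unstimulated. For Stat5a each pair of neighbours overlapped. For Stat5b only the stimulated libraries at 24 h, the lowest, stood apart. For Stat6 the unstimulated libraries at 6 h stood above all others. Its stimulated times overlapped, and the unstimulated libraries at 24 h lay below the stimulated ones of that time but overlapped those of 6 h.

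Comparisons of NFAM1-/- with NFAM1+/+ asked whether the receptor changes the set. By limma no member was called in any of them. The share of all genes called was 0.0861% without and 0% with the stimulus at 6 h, 0% for the difference between the genotypes' responses at 6 h, 0.289% without and 0.579% with the stimulus at 24 h. At an unadjusted p under 0.05, 1 of 9 members passed without and 0 with the stimulus at 6 h, beside 10.1% and 14.6% of all genes, and 1 for the difference of responses, beside 8.53%. At 24 h by title 2 passed without and 1 with the stimulus, beside 10.9% and 15.6%.

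Socs3 in unstimulated cells passed the adjusted p but not the 2-fold threshold. At 6 h it measured 48.7 and 53.8 CPM in NFAM1+/+ and 31.9 and 24.4 CPM in NFAM1-/-, so the genotypes did not overlap. It was lower in NFAM1-/- by 1.84-fold (log2 -0.88, SE 0.15, adjusted p = 0.0412). Over 25 alternative settings the adjusted p ran from 0.0083 to 0.528, and 11 of them, among them 9 of the 16 that leave out a library, lost it. Without library 4 the difference was -0.68 (adjusted p = 0.26). At 24 h by title it measured 49.9 and 52.3 CPM in NFAM1+/+ and 35.7 and 23.9 CPM in NFAM1-/-, again lower, by 1.75-fold (log2 -0.81, SE 0.15, adjusted p = 0.0255). By the genotype tag the same 4 libraries gave 0.26 (adjusted p = 1), with NFAM1+/+ at 52.3 and 23.9 CPM and NFAM1-/- at 35.7 and 49.9 CPM. Without the 4 libraries in conflict, which leaves 1 of each genotype, it was -0.55 (adjusted p = 0.691), and the lone libraries are assumed to vary like the other groups. Over the alternatives at 24 h the adjusted p ran from 0.00246 to 1, and 6 of 25 lost it.

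**Figure D4:**
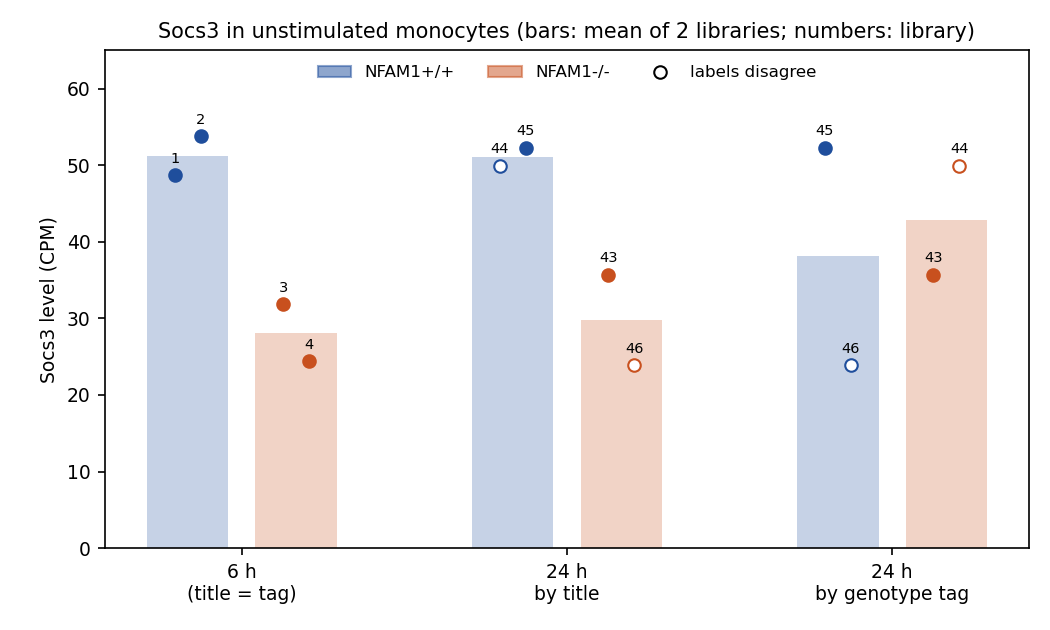
Socs3 level (CPM) in the 8 unstimulated libraries by genotype; bars are means of 2, points are libraries with their numbers, and open points have disagreeing labels. NFAM1-/- lies below NFAM1+/+ at 6 h and by title at 24 h, and libraries 44 and 46 change sides by the tag.

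With the stimulus the genotypes overlapped at 6 h. At 6 h it measured 728 and 779 CPM in NFAM1+/+ and 766 and 672 CPM in NFAM1-/- (log2 -0.07, 95% interval -0.40 to 0.26, adjusted p = 0.881). At 24 h by title it was 447 and 477 CPM in NFAM1+/+ and 529 and 540 CPM in NFAM1-/- (log2 0.21, SE 0.15, adjusted p = 0.589), and by tag -0.06. The response at 6 h was 14.7-fold in NFAM1+/+ and 25.7-fold in NFAM1-/-, and limma's test of that difference did not pass (log2 0.81, SE 0.22, adjusted p = 0.363).

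Socs1 showed wider spread. Without the stimulus at 6 h it was 3.31 and 1.34 CPM in NFAM1+/+ and 1.78 and 1.21 CPM in NFAM1-/- (log2 -0.52, SE 0.33, adjusted p = 0.677). With it, both NFAM1-/- libraries, 1406 and 1388 CPM, lay above both NFAM1+/+ libraries, 909 and 1226 CPM (log2 0.40, SE 0.33, adjusted p = 0.618). The response was 502-fold in NFAM1+/+ and 952-fold in NFAM1-/-, and the difference did not pass (log2 0.92, SE 0.46, adjusted p = 0.585). The interval of that difference, -0.07 to 1.92, spans values from none to more than 3-fold.

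The other members differed between genotypes at 6 h by -0.14 to 0.24 without and -0.28 to 0.13 with the stimulus. At 6 h without the stimulus 2 of 9 members, Stat2 and Socs3, had both NFAM1-/- libraries below both NFAM1+/+ libraries, beside 20.3% of all genes, and 0 above, beside 21.8%. With it Stat4 was below, beside 18.9%, and Socs1 above, beside 23.5%. At 24 h by title without the stimulus Socs1 and Socs3 were below, beside 23.5%, and Stat4 and Cish above, beside 21.9%. With it Stat4 and Stat6 were below, beside 23.2%, and Socs3 above, beside 24.9%. These shares of members are near those of all genes. Of the values at 24 h, Stat4 with the stimulus differed most, by -0.93 on the log2 scale (adjusted p = 0.172), but by -0.52 without library 58, by 0.57 by tag and by -0.35 without the 4 libraries in conflict. Cish without the stimulus differed by 0.64 (adjusted p = 0.376), and by -0.07 by tag.

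Most tested ligands that feed the pathway were higher with the stimulus. Of 16 listed ligands 9 were tested. Of these 8 were called higher at 6 h and 7 at 24 h, against 19.1% and 14.6% of all genes. Their median log2 response was 5.81 and 4.19 beside -0.13 and 0.01 over all genes. Ifnb1 and Il6 were under 1 CPM in every unstimulated library. They passed the filter through stimulated libraries alone, so their call as higher was largely fixed in advance. Il12a, also counted, was at 0.270 to 1.03 CPM without the stimulus at 6 h and 0.512 to 0.834 CPM at 24 h. The same limit applies to its call. Ifnb1, the type I interferon that signals through STAT2, had 0 to 12 reads in unstimulated and 1934 to 3995 reads in stimulated libraries at 6 h, and 58 to 172 reads with the stimulus at 24 h. Il12b, the subunit shared by IL-12 and IL-23, had a log2 response of 8.09 at 6 h and 5.02 at 24 h. Il27, a cytokine of the IL-12 family, had 7.43 and 5.85, and Il6, the ligand of the receptor that Socs3 restrains, had 4.40 and 6.11. From 6 to 24 h in stimulated cells Il6 rose by 1.32 and Lif by 1.42, against 4 ligands called lower, Ifnb1, Il27, Il12a and Il15. Of all genes 16.5% were called higher and 17.2% lower. The response of Il6 and Lif was called larger at 24 h than at 6 h, beside 13.3% of all genes. That of 6 other ligands was called smaller, beside 18.2%.

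The receptors split. Of 26 listed receptor genes 24 were tested. At 6 h 11 were called higher and 2 lower, against 19.1% and 20.6% of all genes. At 24 h 8 were called higher and 7 lower, against 14.6% and 18.7%. Ifngr1, the ligand-binding chain for IFN-γ, had a log2 response of -2.38 at 6 h and -1.84 at 24 h, and Il6ra had -1.18 and -1.37. Il12rb1, the IL-12 receptor chain upstream of STAT4, had 10.73 and 7.46, from 6 to 10 reads in a library without the stimulus at 6 h. It was under 1 CPM in every unstimulated library and passed the filter through stimulated ones alone. Il15ra had 7.99 and 5.36, and Il12rb2 4.70 and 2.41. Lifr, the receptor chain for LIF, had -0.73 at 6 h, under 2-fold, and -4.80 at 24 h. The median of the 24 was 0.68 at 6 h and -0.22 at 24 h, beside -0.13 and 0.01 over all genes. The response was called lower at 24 h than at 6 h for 12 of the 24 and higher for none, against 18.2% and 13.3% of all genes. Own-total scaling moved the median of this difference over all genes from 0.04 to 0.44, and the receptors were not refitted with it.

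Of the Janus kinases and IRF9, Jak2, Jak3 and Irf9 were called higher at both times, 3 of 5, against 19.1% and 14.6% of all genes. The median of the 5 was 1.87 and 1.27. At 24 h own-total scaling moved the median of all genes from 0.01 to -0.34, and Jak3 and Irf9 were not refitted with it. Jak2, the kinase of the IFN-γ receptor, had a log2 response of 3.25 and 2.81, Jak3 of 2.59 and 1.28, and Irf9, the partner of STAT2, of 1.87 and 1.27. The other 5 SOCS genes did not follow Socs1 and Socs3 as a group. At 6 h Socs2 (log2 2.55) and Socs7 (1.62) were called higher and Socs5 (-1.93) lower, beside 19.1% and 20.6% of all genes. At 24 h none was called by limma, beside 14.6% of all genes called higher and 18.7% lower. Of the 5, 4 had an unadjusted p under 0.05 in limma at 24 h, beside 76.5% of all genes. These were Socs2 at 0.98, Socs5 at -0.94, Socs6 at -0.70 and Socs7 at -0.23. Their median was 0.42 and -0.23. Of 12 other inhibitors 3 were called higher at 6 h and 5 at 24 h, against 19.1% and 14.6% of all genes. None was called lower, against 20.6% and 18.7%, and the medians were 0.15 and 0.77. These counts are on the deposited scale alone. Usp18, which STAT2 brings to the type I interferon receptor and which dampens its signaling, rose 215-fold and 32.1-fold. The phosphatase Ptpn2 had 1.68 and 2.02.

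**Figure D5:**
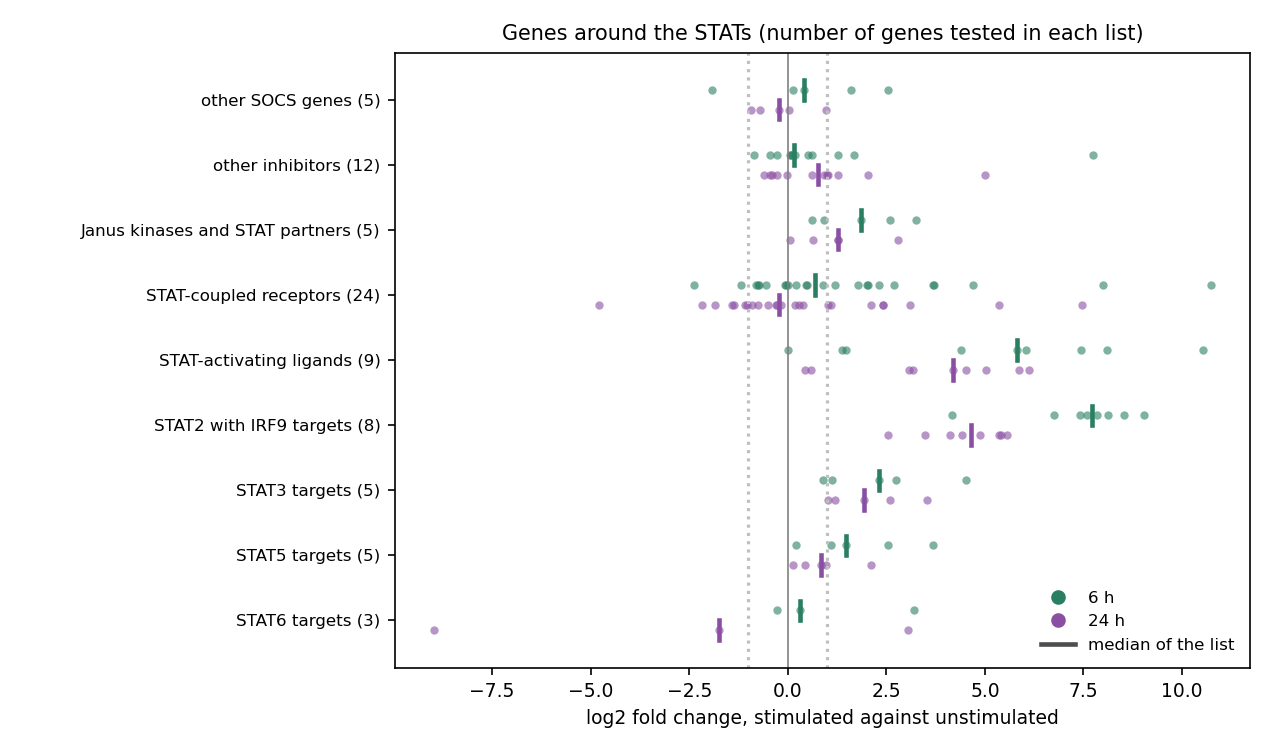
Log2 response at 6 h and 24 h, on the deposited scale, of the tested genes in lists around the STATs; each point is a gene, thick marks are list medians, and dotted lines mark 2-fold. The medians of the STAT2 with IRF9 targets are 7.71 and 4.64, and the receptors spread to both sides of 0.

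Textbook targets were grouped by the STAT they are assigned to. Of all genes 19.1% were called higher at 6 h and 14.6% at 24 h, and 18.7% were called lower at 24 h. The response of 18.2% of all genes was called lower at 24 h than at 6 h. All 8 targets of STAT2 with IRF9 were called higher at both times, with a median log2 response of 7.71 at 6 h and 4.64 at 24 h, and the response of all 8 was called lower at 24 h. Ifit2 had 9.02 and 5.36, Rsad2 8.54 and 4.87, Ifit1 8.12 and 5.41, and Isg15 7.85 and 5.55. For STAT3 4 of 5 targets were called higher at 6 h and 5 of 5 at 24 h, with medians of 2.31 and 1.93. Among them Il1rn had 4.52 and 3.53 and Pim1 2.74 and 2.59. For STAT5 4 of 5 were called at 6 h and only Il2ra at 24 h, with medians of 1.47 and 0.85, and Il2ra had 3.69 and 2.11. For STAT6 only 3 of 6 were tested, with medians of 0.30 and -1.75. Ccl22, a chemokine, was called higher at both times, with 3.21 and 3.05, and Mrc1 and Chil3 were called lower at 24 h, with Mrc1 at 0 to 10 reads in the stimulated libraries. The targets are shared with other factors such as NF-κB, and Il4ra, Osm, Il2ra and Socs2 stand in more than 1 list.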

How the data were processed

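Monocytes were enriched from bone marrow by the study's methods, while the labels name blood monocytes. The authors deposited log2 CPM values for 13085 genes in 16 libraries, made from non-stranded polyA libraries. The authors aligned them with STAR, took counts from Rsubread and applied edgeR normalization and limma-voom. The submitters' processing notes list GRCm39 and mm39. Versions and the annotation are not given in the sources used here. Each value is the log2 of a read number, 0.5 added, over a library size that was scaled, and 100% of values under 50 reads came out whole within 0.02. The ratio of reads to scaled size was 0.756 to 0.788 in unstimulated libraries, 1.24 to 1.32 in stimulated libraries at 6 h and 0.970 to 0.997 at 24 h. Scaling to each library's own total therefore moved the median log2 difference of all genes from -0.13 to -0.87 for the stimulus at 6 h, from 0.01 to -0.34 at 24 h, and from 0.04 to 0.42 between the times in stimulated cells. It also moved the share of higher among called genes from 48.1% to 21.3%, from 43.9% to 29.6% and from 49.0% to 69.5%, and for the difference of responses from 42.1% to 67.5%.

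The 12782 genes that reached 1 CPM in 2 or more libraries entered 1 model of 8 groups in limma 3.58.1 under R 4.3.3, with 8 residual degrees of freedom and a prior variance that follows the mean. Count models were not run, and voom weights from reads recovered from the log2 values served as an alternative. With this depth the spread between libraries limits the precision. Pearson correlations of log2 CPM over 16 libraries named the 3 genes nearest to Socs1, Socs3 and Stat3. All 9 members are described, and from each list the called genes with the largest changes, up to 4. Members and lists were chosen with earlier results of these data known. The groups follow the titles, and the tag was an alternative. The other alternatives were scaling, filters, weights, subsets of libraries and leaving out each library. The steps were tested on simulated data. The IFN-γ dose differs between labels and methods. Among the symbols 17 are shown as dates and 1 is repeated.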

Additional observations from a re-analysis of the deposited data

Results flagged for a closer look

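The response at 24 h differed from the response at 6 h by the test of the difference itself for 7 of 9 members at an adjusted p under 0.05 in limma, with no minimum fold change, beside 67.2% of all genes. The log2 differences were -3.15 for Socs1, -1.92 for Cish, -1.65 for Stat2, -0.60 for Socs3, 0.35 for Stat6, -0.33 for Stat5b and 0.28 for Stat5a. The first 3 passed 2-fold. With own-total scaling Socs3 no longer passed the adjusted p and the sign of Stat5b turned, and Stat5a no longer passed it in 6 of the 16 fits that leave out a library.

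Each of the 9 members was also examined for a library far from the other 3 in each condition of 4 libraries, 36 sets in all, of which chance singles out about 1 in 20. Library 43, an unstimulated NFAM1-/- library at 24 h by both labels, was singled out in 2 of them. It had the highest Stat5a level, 6.06 log2 CPM (66.6 CPM against 57.3 to 58.3 CPM in the other 3), and the lowest Socs1 level, 1.61 log2 CPM (3.06 CPM against 4.31 to 4.55 CPM).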

How the results depend on the processing

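The call of Socs1, Socs3, Cish, Stat2 and Stat3 with the stimulus held in direction and side of the threshold under the 2 other scalings, both filters, the prior without trend, voom weights, the subsets and each left-out library. Between 5 and 6 members were called with the stimulus at 6 h when single libraries were left out. With own-total scaling Stat5a with the stimulus at 6 h was -0.67 and with quantile normalization -0.18, and Stat6 at 24 h was -0.23 and -0.32. From 6 to 24 h in stimulated cells Stat3 was 0.19 and 0.28, Stat6 0.35 and 0.45, and Stat5b 0.079 with own-total scaling. For the difference of responses Stat3 was 0.26 and 0.31, and Stat5b 0.066 with own-total scaling. By the genotype tag at 24 h, Socs3 was 0.26 without and -0.064 with the stimulus, Cish without it -0.069, and Stat4 and Stat6 with it 0.57 and 0.018. The values by tag come from moving 4 libraries between groups, and the cause of the others was not tested. With no minimum fold change the members called were 3 between the times without the stimulus, 8 with it, 7 for the difference of responses and 1 between genotypes without the stimulus at each time, beside 64.4%, 76.4%, 67.2%, 0.156% and 0.954% of all genes. A mean of at least 5 CPM removes Stat4 from the test. With quantile normalization 0 were called between the times without the stimulus.

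When single libraries were left out, 0 to 1 members were called between the times without the stimulus, the call of Socs1 being lost without library 2. Between genotypes without the stimulus 0 to 1 were called at 6 h and 0 to 1 at 24 h, since Socs3 passed 2-fold without library 3 (-1.07) or library 43 (-1.10). Stat5a with the stimulus at 6 h ran from -0.0054 to 0.12, Stat5b from -0.11 to 0.056, and Stat6 from 6 to 24 h in stimulated cells from -0.064 to 0.023. Between genotypes at 6 h Socs1 without the stimulus ran from -1.17 (without library 2) to 0.13 (without library 1), and Socs3 with it from -0.16 to 0.025. No paired analysis was possible because the library numbers are not shared between groups, although some libraries share a mouse. The alternative that fits only the libraries of 1 stimulus was chosen after seeing the data. Few reads stand behind Cish and Socs1 in unstimulated libraries, 27 to 79 and 83 to 374, and behind Stat4 in all, 104 to 605.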
